A study of Mus musculus with 12 samples.

Results

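Polysomal RNA was compared with total cellular RNA in C2C12 cells labelled as knockout of Ddx27, over all 13027 genes listed for these cells. C2C12 is a widely used line of mouse myoblasts, which proliferate in culture and fuse into myotubes when serum is withdrawn. The study sampled cells of 2 genotypes, wild type and knockout of Ddx27, and from each took Trizol-extracted total RNA and Trizol-extracted RNA of purified polysomes, so as to compare how far transcripts are enriched in polysomes. The labels list 12 samples, 3 for each combination of genotype and RNA fraction. The libraries described here are 5 of the 11 with values: 2 of total RNA and 3 of polysomal RNA, all from Ddx27-knockout cells, chosen as the columns of the deposited knockout table; the third knockout total sample was not analysed here. The 6 wild-type libraries, 3 per fraction, serve only for comparison. The labels give no method of knockout and do not say whether the cells are 1 clone, whether samples of a group came from separate cultures, or how the polysomes were purified. The p-values measure only the spread between these samples, which may be technical.

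A polysome is an mRNA that carries several ribosomes at once, and an mRNA's share in polysomes reflects how many of its copies are being translated. RNAs that stay in the nucleus or that encode no protein are usually sparse there, whereas an mRNA with well-used ribosome entry is enriched. Ddx27 is an RNA helicase of the nucleolus that helps to mature the ribosomal RNA of the large subunit, and myoblasts that stop dividing switch from growth genes to the genes of the contractile apparatus.

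Levels are the authors' normalised read counts, which are whole reads times 1 factor per library. Knockout libraries are numbered by table column, because their numbers could not be tied to those of the sample titles. Reads per library ran from 13683674 to 27347878, and a value of 0 allows up to 3 reads, or 0.0989 to 0.257 normalised read counts (counting error only; no molecular identifiers are mentioned, so reads are not counted molecules). Pairs of libraries of a group gave chi-square values of 107.0 to 581 per degree of freedom, far beyond sampling noise. Polysomal libraries 1 and 2 stood apart, with 23.1% and 32.7% of their reads in 4 gene models that collect ribosomal RNA sequence (Gm26924, mmu-mir-6236, Lars2 and Gm23935), against 0.385% in polysomal library 3 and 0.0912% and 0.135% in total RNA. Libraries also differed by gene length. Total library 2 and polysomal library 1 read short genes high, and the other 3 libraries read long genes high. With each doubling of gene length, the log2 level relative to mean total RNA changed by 0.10 and −0.10 in total libraries 1 and 2, and by −0.15, 0.14 and 0.10 in polysomal libraries 1 to 3.

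**Figure D1:**
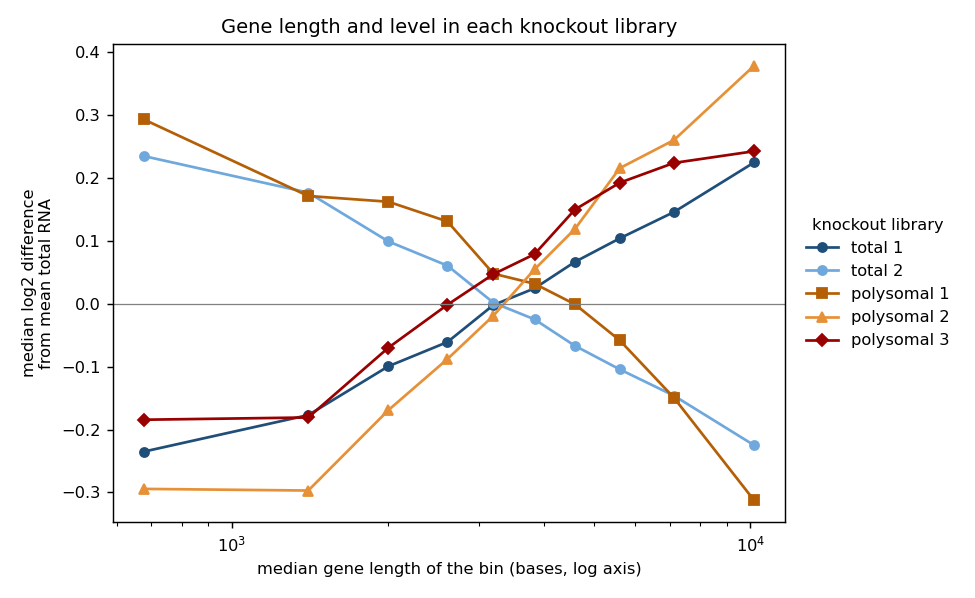
Median log2 difference from the mean of the 2 total libraries (vertical axis) against the median gene length of 10 length bins (horizontal log axis, bases), 1 line per knockout library. In the shortest bin, with a median length of 677 bases, total library 2 and polysomal library 1 stand at 0.24 and 0.29 and the other 3 libraries between −0.29 and −0.18; in the longest bin, of 10164 bases, the order is turned around.

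The targeted gene was checked first. Ddx27 (ENSMUSG00000017999; chromosome 2, 167015313 to 167034945, GRCm38) had normalised read counts of 39.7 and 45.04 in total RNA and 52.6, 41.0 and 31.3 in polysomal RNA of the knockout, against 150.4, 144 and 139 in wild-type total RNA and 213, 139 and 215 in wild-type polysomal RNA. Every knockout library was below every wild-type library, although the authors scaled the tables of the genotypes separately. Within the knockout, the remaining Ddx27 reads had a log2 difference of −0.05 ± 0.27 (SE; adjusted p = 0.933), and the values of the fractions overlapped. Of 6 defining myoblast markers, 4 are listed. Myf5, a determination factor of muscle precursors, stood at 107 and 122.7 in total RNA and 71.4, 104 and 115 in polysomal RNA, and Cdh15, which encodes M-cadherin, at 194 and 182 in total RNA and 116, 114 and 134 in polysomal RNA. Both were present in every library. Myod1, the other determination factor, was near 0, at 0.363 and 1.13 in total RNA and 0, 0 and 0.0861 in polysomal RNA, and Pax7 and Msc have no values in the knockout table. Other cell types' markers were also read. Of 14 fibroblast markers, 9 are listed, and their summed level was 4809.7 and 6931 in total RNA and 6512, 3404 and 3547 in polysomal RNA. The 3 listed of 8 adipocyte markers (Pparg, Cebpa and Lpl) summed to 82.7 and 73.2 in total RNA and 67.9, 67.3 and 68.5 in polysomal RNA, and the 2 listed of 10 leukocyte markers (Csf1r and Cd68) to 6.79 and 9.996 in total RNA and 7.42, 6.25 and 7.19 in polysomal RNA. None of 8 endothelial markers is listed. The 3 listed of 8 osteoblast markers summed to 7960.4 and 10389.7 in total RNA and 2630.2, 3006 and 3137 in polysomal RNA, nearly all of it Spp1, which encodes the secreted protein osteopontin.

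Among the 13027 genes, 383 (2.94%) passed an adjusted p of 0.05 in limma's linear model, 119 higher (0.913%) and 264 lower (2.03%) in polysomal than in total RNA. At an unadjusted p under 0.05 there were 2935. The median log2 difference over all genes was 0.03, with 6835 above 0 and 6192 below. The shares over all genes, 0.913% higher and 2.03% lower, are the background for the list counts below. Genes that rose had a median level in total RNA of 11.7 normalised read counts and genes that fell 106, against 26.5 over all genes. Their median lengths were 3926 and 4008 bases, against 3494. In all 383 the libraries of the fractions did not overlap, a pattern that 22.0% of all genes showed upward and 18.3% downward. For a called gene, separate fractions are therefore no further support. Without total library 1, 3 genes rose and 8 fell, and without total library 2, 2 rose and 8 fell; each of these fits has 1 total library, assumed to vary like the polysomal ones, so few genes can pass. Without polysomal library 1 the counts were 778 and 737, without library 2 they were 54 and 195, and without library 3 they were 36 and 55. Without the 2 libraries rich in ribosomal RNA reads, 103 genes rose and 232 fell, of which 54 and 166 were among the genes called with all libraries; polysomal library 3 then stands alone, and the spread comes only from the 2 total libraries, here and in each count given below without those libraries. Removing each library's trend on length gave 622 and 766, DESeq2 gave 567 and 802, and a fit with all 4 groups gave 416 and 537, all with a larger share of rises. Among the gene lists, only the immediate-early, contractile, basement membrane and intermediate filament lists had members called with 1 total library. Genes outside these lists were called there as well. Called with any 1 library left out were 8 genes: Fos and Fosb, which rose, and Aldh3a1, Dnm3os, Acta1, Ckm, Trem2 and Tnnc2, which fell.

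**Figure D2:**
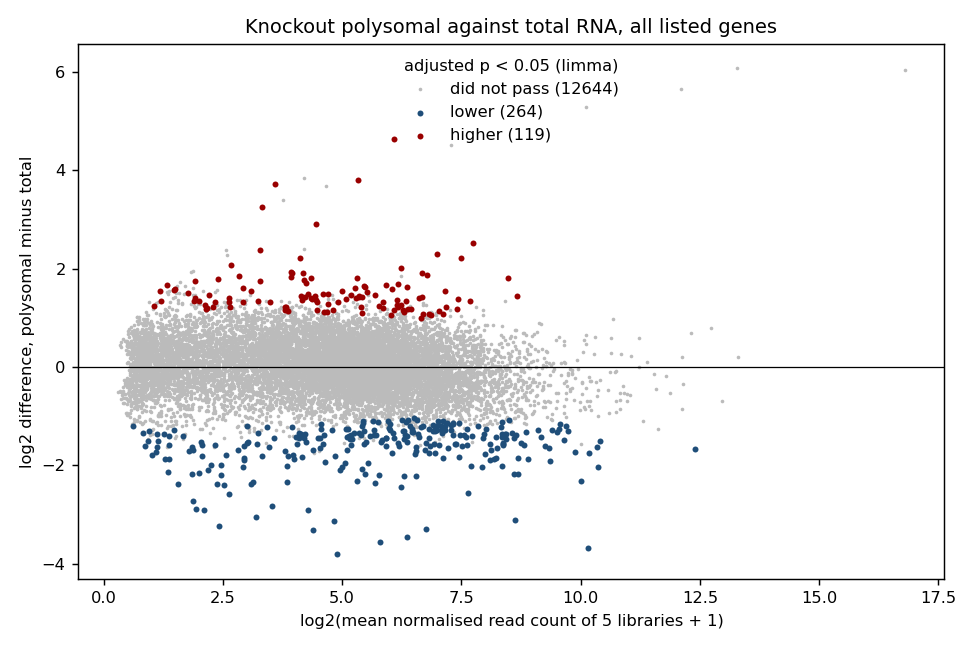
Log2 difference of polysomal minus total RNA in knockout cells (vertical axis) against log2 of the mean normalised read count over the 5 libraries plus 1 (horizontal axis), 1 point per gene. Red points are the 119 genes that rose and blue points the 264 that fell at an adjusted p under 0.05 (limma); the grey points near the top right at differences of 5.29 to 6.08 are the 4 gene models of ribosomal RNA reads, low in polysomal library 3, which did not pass.

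The largest rise was that of Fos, one of the immediate-early genes, whose short-lived mRNAs appear within minutes of a growth or stress signal. Fos (ENSMUSG00000021250; chromosome 12, 85473890 to 85477274, GRCm38), a subunit of the AP-1 transcription factor, had 3.50 and 3.32 in total RNA and 112, 128 and 89.2 in polysomal RNA. All 3 polysomal libraries were far above both total libraries, with means of 3.41 ± 0.125 in total RNA and 109.7 ± 19.6 in polysomal RNA (SD), a 32.2-fold ratio. Its log2 difference, on the scale of log2 of the value plus 1, was 4.64 ± 0.25 (SE; limma, adjusted p = 0.000199). Fosb, a Fos paralogue in the same factor, stood at 0.956 and 0.364 in total RNA and 14.6, 15.8 and 13.4 in polysomal RNA, a log2 difference of 3.26 ± 0.28 (adjusted p = 0.00193). Again no polysomal value came near a total one. Atf3, a stress-induced bZIP factor that pairs with Jun proteins, had 3.66 and 3.16 in total RNA and 42.1, 30.6 and 25.2 in polysomal RNA, at 2.90 ± 0.29 (adjusted p = 0.00271). Jun itself rose less, from 104 and 106 to 281, 271 and 253, by 1.34 ± 0.22 (adjusted p = 0.02). Egr1, a zinc finger factor induced by growth factors, went from 155 and 127 in total RNA to 440.5, 575 and 469 in polysomal RNA, by 1.81 ± 0.25 (adjusted p = 0.0105).

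Klf10, a factor induced by TGF-beta, had nearly equal values in the 3 polysomal libraries, at 38.2 and 35.8 in total RNA and 186, 184 and 186 in polysomal RNA, a 5.01-fold ratio of means (log2 difference 2.30 ± 0.22, adjusted p = 0.00271). Csrnp1, a nuclear protein gene induced with AP-1, rose by 1.54 ± 0.28 (adjusted p = 0.0256), and Hes1, a Notch target, by 1.34 ± 0.28 (adjusted p = 0.0427). These were 8 of the 41 listed AP-1 and immediate-early genes (19.5%, against 0.913% of all genes), with none lower. The list's median log2 difference was 0.68 (interquartile range 0.08 to 1.08), against 0.03 over all genes, with 35 of 41 members above 0. It was 0.43 without total library 1 and 0.62 without total library 2. In polysomal libraries 1 to 3 its median was 0.90, 0.66 and 0.39 against the mean of total RNA. Without the libraries rich in ribosomal RNA reads, 5 members rose and 3 fell, 13 rose and 3 fell without polysomal library 1, 5 without library 3, and 2 without either total library.

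Negative regulators that the same signals induce were also higher. Dusp1, a phosphatase that switches off MAP kinases, stood at 51.6 and 57.5 in total RNA and 379, 289 and 288 in polysomal RNA, a log2 difference of 2.52 ± 0.24 (adjusted p = 0.00271). Zfp36, which encodes tristetraprolin, a protein that promotes decay of AU-rich mRNAs, stood at 35.6 and 38.1 in total RNA and 173, 137 and 121 in polysomal RNA, at 1.92 ± 0.24 (adjusted p = 0.00908). For both genes the lowest polysomal value was more than 3 times the highest total one. Btg2, an antiproliferative gene and p53 target that helps to remove poly(A) tails, had 58.1 and 52.2 in total RNA and 293, 263 and 231 in polysomal RNA, at 2.22 ± 0.23 (adjusted p = 0.0034). Sgk1, a serum-induced kinase, went from 40.3 and 41.6 to 169, 179.9 and 115, at 1.87 ± 0.26 (adjusted p = 0.0113). Smad7, an inhibitor of TGF-beta receptors, went from 28.3 and 30.7 to 124, 95.9 and 77.3, at 1.69 ± 0.26 (adjusted p = 0.0162). The lowest gains among the called members were those of Ddit4, an inhibitor of mTORC1 signalling, at 1.38 ± 0.27 (adjusted p = 0.0314), and Txnip, which binds thioredoxin, at 1.22 ± 0.22 (adjusted p = 0.0256). In all, 7 of the 40 listed short-lived feedback regulators rose and none fell, with a median of 0.56. Without polysomal library 1, 13 rose and 1 fell, and without either total library none did.

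The promoters of 3 of these genes are shown as RefSeq sequence of build GRCm38.p6, because the genes are known as joint targets of signalling and rose together here; the data measured no binding. Each line gives a stretch of 100 bases upstream of the start of transcription, read in the direction of the gene. The stretch was cut around a match to the motifs marked in it. Capitals mark the cAMP response element TGACGTCA or the shorter TGACG, which is contained in it, on either strand.
Fos (chr12:85473774-85473873, plus strand): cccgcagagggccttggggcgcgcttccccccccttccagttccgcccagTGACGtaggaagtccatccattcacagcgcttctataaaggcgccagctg
Dusp1 (chr17:26508566-26508665, minus strand): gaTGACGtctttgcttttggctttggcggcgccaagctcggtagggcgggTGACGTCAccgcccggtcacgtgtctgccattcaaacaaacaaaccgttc
Btg2 (chr1:134079272-134079371, minus strand): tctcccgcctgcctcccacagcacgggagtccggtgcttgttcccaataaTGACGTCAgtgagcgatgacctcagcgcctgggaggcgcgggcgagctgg
Of the 15 immediate-early and feedback genes that rose, 11 have a promoter in the table. Within 250 bases upstream, 2 of the 11 hold TGACGTCA and 7 hold TGACG on either strand. The 2 are Dusp1 and Btg2, both shown above, and Jun, Zfp36, Ddit4 and Txnip hold neither motif. Among all 8872 promoters of listed genes the shares were 3.19% and 31.8%. Among the 79 promoters of genes that rose, 6 hold TGACGTCA and 24 hold TGACG. A match describes the letters only.

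**Figure D3:**
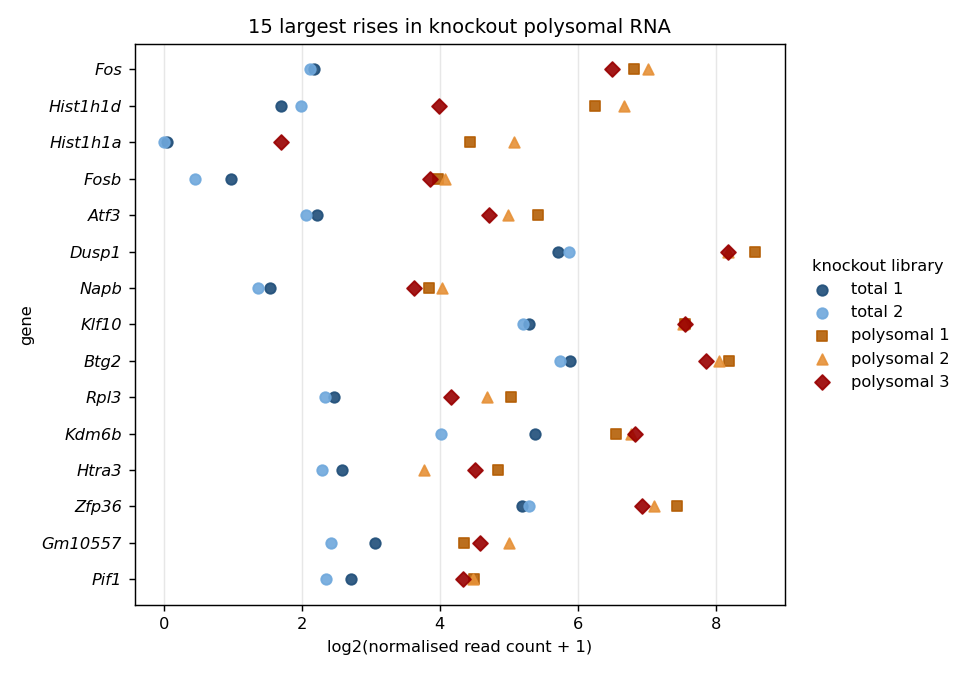
Log2 of the normalised read count plus 1 (horizontal axis) of the 15 largest rises that passed the test (vertical axis), with 1 symbol per knockout library: blue circles for the 2 total libraries and squares, triangles and diamonds for polysomal libraries 1 to 3. By the rule that chose these genes, all 3 polysomal symbols lie to the right of both total ones. For Hist1h1d and Hist1h1a polysomal library 3 lies well below libraries 1 and 2.

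Replication-dependent histone mRNAs, which end in a stem-loop and carry no poly(A) tail, were higher in polysomal libraries 1 and 2 than in library 3. Hist1h1d, a linker histone, stood at 2.24 and 2.95 in total RNA and 74.8, 101 and 14.9 in polysomal RNA, a log2 difference of 3.79 ± 0.66 (adjusted p = 0.024). Hist1h1a, another linker histone, stood at 0.033 and 0 in total RNA and 20.8, 32.6 and 2.24 in polysomal RNA, at 3.71 ± 0.81 (adjusted p = 0.0465). Polysomal library 3 was above total RNA for both genes but far below the other polysomal libraries. These were the called members of 50 listed histone genes (4.0%, against 0.913% of all genes). Of the 50, 49 had a difference above 0, with a median of 1.28. The median in polysomal libraries 1 to 3 was 1.39, 2.27 and 0.22, and the share of ribosomal RNA reads in them was 23.1%, 32.7% and 0.385%; its part in the histone values was not tested. At an unadjusted p under 0.05 there were 33 members, DESeq2 called 32 higher, and 5 rose without polysomal library 1 and 12 without library 3. Reads of near-identical histone copies may be split between genes, so levels of single histone genes are uncertain.

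The remaining large rises had varied roles. Napb, a SNAP protein of vesicle fusion, had 1.91 and 1.58 in total RNA and 13.3, 15.4 and 11.4 in polysomal RNA, at 2.38 ± 0.27 (adjusted p = 0.00529). Kdm6b, a histone H3K27 demethylase, had 40.4 and 15.2 in total RNA and 92.6, 108 and 113 in polysomal RNA, at 2.02 ± 0.37 (adjusted p = 0.0259). In Kdm6b the total libraries lay further apart than the polysomal ones. Htra3, a secreted serine protease, had 4.98 and 3.89 in total RNA and 27.6, 12.6 and 21.7 in polysomal RNA, at 1.94 ± 0.34 (adjusted p = 0.0254). Pif1, a DNA helicase, rose by 1.91 ± 0.26 (adjusted p = 0.00993), and the predicted gene Gm10557 by 1.91 ± 0.31 (adjusted p = 0.02). Rpl3, a core protein of the large ribosomal subunit, had 4.52 and 4.05 in total RNA and 31.6, 24.7 and 16.8 in polysomal RNA, at 2.22 ± 0.31 (adjusted p = 0.011). Reads shared with processed copies may be missing from these values, so its level is uncertain.

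Genes of the p53 pathway leaned upward. Of 30 listed p53 targets, 3 rose: Btg2, Ccng1 and Mdm2. Ccng1, cyclin G1, had 191 and 199.8 in total RNA and 393, 574 and 662 in polysomal RNA, at 1.44 ± 0.28 (adjusted p = 0.0327), and Mdm2, the ligase that degrades p53, had 93.7 and 93.6 in total RNA and 211, 262 and 179 in polysomal RNA, at 1.19 ± 0.25 (adjusted p = 0.0394). Neither gene's fractions overlapped. None of the 30 fell, 25 had a difference above 0 and the list's median was 0.60. Without polysomal library 2 or 3, 1 member rose, and without library 1, 10 did.

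Zinc finger genes named Zfp, most of which encode DNA-binding repressors, made up 10 of the 119 rises. Of 277 listed, 10 rose (3.61%, against 0.913% of all genes) and none fell. The median was 0.53 (interquartile range 0.28 to 0.82), and 251 had a difference above 0. Apart from Zfp36, which is no DNA-binding member, the largest were Zfp408, at 20.1 and 10.7 in total RNA and 62.3, 52.8 and 47.9 in polysomal RNA (1.81 ± 0.30, adjusted p = 0.0202), and Zfp39, at 4.02 and 2.06 in total RNA and 10.4, 15.7 and 11.1 in polysomal RNA (1.75 ± 0.32, adjusted p = 0.0259). In both, polysomal values lay above total ones in every library. Zfp11, Zfp68 and Zfp959 rose by 1.60, 1.46 and 1.40. In polysomal libraries 1 to 3 the median was 0.41, 0.60 and 0.58. The number called was 51 without polysomal library 1, 3 without library 2, 1 without library 3 and 0 without either total library. With all libraries, 104 members had an unadjusted p under 0.05, and edgeR called 8 higher and DESeq2 44. Rises in other lists were few. Insig1, a brake on cholesterol synthesis (1.43 ± 0.28, adjusted p = 0.0318), was alone among 29 listed cholesterol genes in passing in limma. Slc15a3 and Slc38a6 (1.83 and 1.36) were 2 of 168 listed solute carriers, or 1.19%, near the 0.913% of all genes. The median of solute carriers was 0.07.

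The largest fall was that of a muscle structural gene, and 3 members of the contractile list were among the 15 largest. Acta1 (ENSMUSG00000031972; chromosome 8, 123891758 to 123894775, GRCm38), skeletal muscle alpha-actin, had 75.3 and 56.7 in total RNA and 4.08, 2.91 and 4.26 in polysomal RNA. Every polysomal library was far below both total libraries, with a ratio of means of 17.6-fold, and the log2 difference was −3.82 ± 0.28 (SE; adjusted p = 0.000948). Mylpf, the fast regulatory myosin light chain, had 43.5 and 45.7 in total RNA and 4.97, 2.74 and 3.36 in polysomal RNA, at −3.31 ± 0.29 (adjusted p = 0.00193). Pvalb, a calcium buffer of fast fibres, had 42.3 and 76.7 in total RNA and 9.60, 3.08 and 5.60 in polysomal RNA, at −3.14 ± 0.42 (adjusted p = 0.00978). Myog, the transcription factor that starts terminal differentiation, went from 11.5 and 8.90 to 1.09, 1.03 and 1.16, at −2.41 ± 0.27 (adjusted p = 0.00487). Ckm, Tnnc2 and Mb, which encode muscle creatine kinase, fast troponin C and myoglobin, were below 10 normalised read counts in total RNA and below 0.3 in every polysomal library, with differences of −2.92 ± 0.28, −2.90 ± 0.29 and −2.73 ± 0.30 (adjusted p = 0.00271, 0.00271 and 0.00465). Polysomal values of these 3 genes rest on at most 4 reads per library, and adding 1 before the logarithm makes their differences smaller than the ratios.

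In all, 17 of the 58 listed contractile and terminal muscle genes fell and none rose; 52 had a difference below 0 and the median was −1.10, at −1.02, −1.23 and −1.03 in polysomal libraries 1 to 3. The count was 33 without polysomal library 1, 8 without library 3, 4 without total library 1 and 3 without total library 2. These differences compare polysomal with total RNA and do not measure the number of differentiated cells or the amount of these RNAs per cell. The part of differentiated cells in these values was not tested. Myoblast identity genes moved less. Of 40 listed, 5 fell, among them Igfbp5, a binding protein of insulin-like growth factors (981 and 555 against 111, 165 and 229.8; −2.18 ± 0.36, adjusted p = 0.02), Itga7, the laminin receptor subunit of muscle (−1.56), Des, desmin (−1.55), and Vcam1, an adhesion molecule (−1.44). The median of this list was −0.22. Without polysomal library 3, 1 fell, and without the libraries rich in ribosomal RNA reads, 2 rose and 2 fell.

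**Figure D4:**
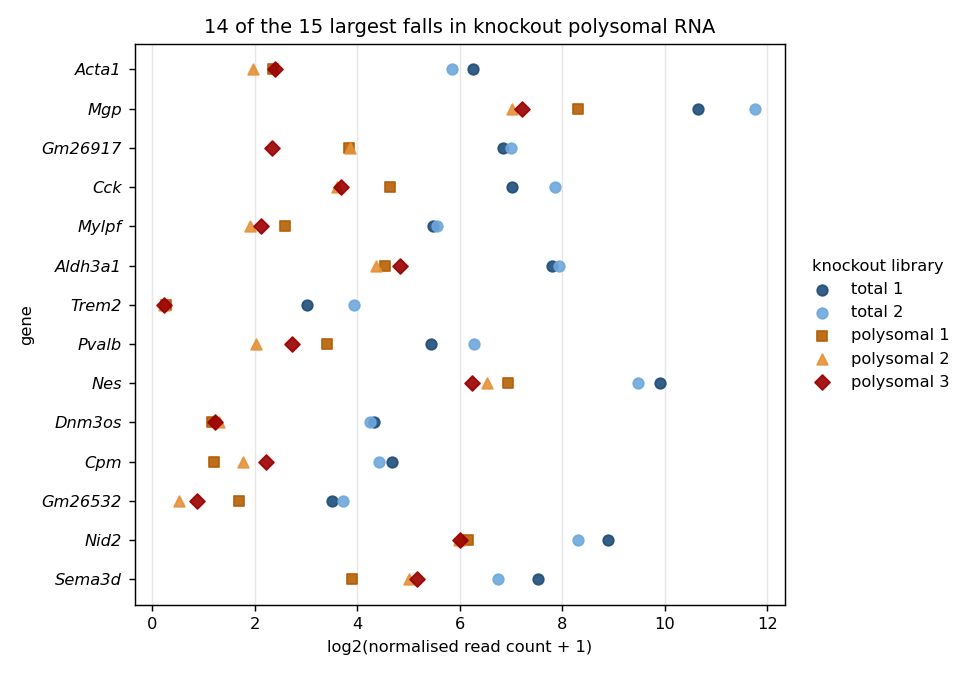
Log2 of the normalised read count plus 1 (horizontal axis) of 14 of the 15 largest falls that passed the test (vertical axis), with the same symbols per library as in the plot of rises. By the rule that chose these genes, all 3 polysomal symbols lie to the left of both total ones. In Mgp the 2 total libraries, at 1599 and 3468 normalised read counts, lie apart by more than 2 times.

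Transcripts of the extracellular matrix and of its anchors were lower as well. Mgp, matrix Gla protein, an inhibitor of calcification, had 1599 and 3468 in total RNA and 315, 129 and 147 in polysomal RNA, a 12.9-fold ratio of means (−3.69 ± 0.45, adjusted p = 0.00728). Fn1, fibronectin, had 2556 and 1452 in total RNA and 382, 404 and 375 in polysomal RNA, at −2.31 ± 0.30 (adjusted p = 0.00908). For both, the highest polysomal value was below the lowest total one by at least 3 times. The small proteoglycan decorin (Dcn) changed by −2.19 ± 0.31 (adjusted p = 0.0114), Ltbp4, a binding protein of latent TGF-beta, by −1.96 ± 0.25 (adjusted p = 0.00908), the large proteoglycan versican (Vcan) by −1.85 ± 0.34 (adjusted p = 0.0263) and Col12a1 by −1.70 ± 0.31 (adjusted p = 0.0261). These belong to 12 of 51 listed collagens and interstitial matrix genes that fell, with a median of −0.69. Cthrc1, a secreted protein with a short collagen repeat, was the single one to rise, from 7.16 and 6.27 to 20.4, 13.6 and 17.6 (1.23 ± 0.27, adjusted p = 0.0498). Without polysomal library 3, 4 fell in this list. Dcn and Col3a1 (−1.48) are also the 2 of 9 listed fibroblast markers that fell; none rose, and the part of fibroblast-like cells in the matrix values was not tested.

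Basement membrane genes had a median of −1.35, and all 17 listed had a difference below 0; the median was −1.02 without total library 1 and −1.59 without total library 2. The 9 that fell were led by Nid2, the linker protein nidogen 2, at 476 and 315 in total RNA and 70.0, 62.0 and 63.5 in polysomal RNA (−2.56 ± 0.25, adjusted p = 0.00271). Its polysomal values were close together and its total values were not. Col4a2, a chain of type IV collagen, had 513 and 379.6 in total RNA and 137, 108 and 82.2 in polysomal RNA, at −2.04 ± 0.28 (adjusted p = 0.0113). Nid1, Hspg2 (perlecan), Col4a1 and the laminin chain Lamb1 fell by 1.77, 1.57, 1.57 and 1.55 on the log2 scale. The other 3 were Lama5, Lamb2 and Agrn. The number was 10 without the libraries rich in ribosomal RNA reads, 2 without polysomal library 3, 0 without total library 1 and 1 without total library 2. These are long genes, with a median of 6766 bases, and the libraries read length differently. With each library's length trend removed, 12 fell and the list's median stayed at −1.35. Falls over all genes went from 264 to 766 in that setting. The part of length in these values was not tested.

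Genes on the inner side of the same contacts followed. Of 39 listed integrin and focal adhesion genes, 8 fell and none rose, with a median of −0.51. Flna, filamin A, an actin cross-linker, had 2786 and 2042 in total RNA and 560.4, 626 and 560.3 in polysomal RNA, at −2.03 ± 0.28 (adjusted p = 0.00993). Tln1, talin 1, which ties integrins to actin, had 707 and 476 in total RNA and 137, 164 and 131 in polysomal RNA, at −2.01 ± 0.26 (adjusted p = 0.00908). Neither gene's fractions overlapped. Vcl, vinculin, and the integrin subunit Itgb7 changed by −1.47 ± 0.28 and −1.38 ± 0.24 (adjusted p = 0.0293 and 0.0228). Of 49 listed actin and myosin cytoskeleton genes, 8 fell and none rose, with a median of −0.46: among them Myh9, non-muscle myosin IIA (2685 and 1696 against 573, 813 and 689; −1.64 ± 0.31, adjusted p = 0.0299), the linker plectin (Plec, −1.59), the spectrins Sptbn1 (−1.58) and Sptan1 (−1.43), and gelsolin (Gsn, −1.55). Actg1, cytoplasmic gamma-actin, is listed at 3.92 and 4.17 in total RNA and 0.953, 0.685 and 1.08 in polysomal RNA and changed by −1.41 ± 0.27; its reads may be shared with copies, so its level is uncertain. Actb, the other cytoplasmic actin, had 4463 and 5993 in total RNA and 3687, 3886 and 4691 in polysomal RNA and did not pass (−0.35 ± 0.34, adjusted p = 0.584). Without polysomal library 3, 3 adhesion and 0 cytoskeleton genes fell, and without library 1, 11 and 15.

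Several of the largest falls lay in no matrix or muscle list. Nes, nestin, an intermediate filament protein of precursor cells, had 953 and 714 in total RNA and 121, 91.7 and 74.3 in polysomal RNA, an 8.70-fold ratio of means (−3.12 ± 0.28, adjusted p = 0.00232). Cck, the hormone cholecystokinin, had 128 and 232 in total RNA and 24.0, 11.2 and 11.8 in polysomal RNA, at −3.46 ± 0.38 (adjusted p = 0.00465), and Aldh3a1, an aldehyde dehydrogenase, had 222 and 244 in total RNA and 22.2, 19.5 and 27.6 in polysomal RNA, at −3.29 ± 0.24 (adjusted p = 0.000948). In all 3 genes each polysomal library was at or below 27.6 normalised read counts or, for Nes, below 122, far under total RNA. Nes and Des were the 2 of 11 listed intermediate filament and lamin genes that fell; none rose and the median was −0.58. Trem2, a receptor of macrophages and osteoclasts, stood at 7.12 and 14.2 in total RNA and 0.204, 0.171 and 0.172 in polysomal RNA, at −3.23 ± 0.32 (adjusted p = 0.00273), and its polysomal values rest on at most 4 reads per library. Cpm, a membrane carboxypeptidase, had 24.6 and 20.4 in total RNA and 1.29, 2.40 and 3.66 in polysomal RNA (−2.82 ± 0.34, adjusted p = 0.00722). Sema3d, a secreted guidance protein, changed by −2.45 ± 0.40 (adjusted p = 0.02). The predicted genes Gm26917 and Gm26532, whose products are not known here, changed by −3.57 ± 0.44 and −2.59 ± 0.37 (adjusted p = 0.0077 and 0.0117).

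Lysosomal genes were lower too. Of 50 listed, 11 fell and none rose, 46 had a difference below 0 and the median was −0.71. Hexa, a subunit of beta-hexosaminidase, had 356 and 403 in total RNA and 96.6, 83.3 and 102 in polysomal RNA, a 4.04-fold ratio of means (−2.01 ± 0.23, adjusted p = 0.00566), and Psap, the precursor of the saposins, had 2099 and 1887 in total RNA and 448, 654 and 687 in polysomal RNA (−1.76 ± 0.29, adjusted p = 0.0202). Both were clearly separate between fractions. The galactosidase Gla changed by −1.38 ± 0.26, the protease cathepsin D (Ctsd) by −1.30 ± 0.26 and the glycoprotein Gpnmb by −1.80 ± 0.30 (adjusted p = 0.028, 0.0331 and 0.0206). The number was 18 without polysomal library 1, 4 without library 2, 1 without library 3, and 2 without the 2 libraries rich in ribosomal RNA reads. Among 36 listed collagen-processing and matrix-remodelling enzymes, 3 fell: the protease inhibitor Serpine2 (76.8 and 88.7 against 14.8, 16.1 and 22.5; −2.18 ± 0.26, adjusted p = 0.00728), cathepsin L (Ctsl, −1.16), which is also on the lysosomal list, and the urokinase receptor (Plaur, −1.07). Without polysomal library 1, 8 fell, and without library 2 or 3, 1. Spp1, among the bone markers, fell from 7913 and 10347 to 2577, 2895 and 3051 (−1.67 ± 0.34, adjusted p = 0.0342).

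Of the other lists, aminoacyl-tRNA synthetases had 5 of 39 lower and none higher, with a median of −0.44. Vars, the valine enzyme, had 410.3 and 390.0 in total RNA and 158, 160.3 and 122 in polysomal RNA (−1.45 ± 0.24, adjusted p = 0.02), and Lars, the leucine enzyme, had 300.1 and 320.3 in total RNA and 113, 137 and 97.7 in polysomal RNA (−1.43 ± 0.24, adjusted p = 0.0218). Polysomal values were below total values in every library for both. Eprs, Mars and Aars fell by 1.38, 1.15 and 1.08 on the log2 scale. Cytosolic heat-shock proteins and chaperonin had 2 of 31 lower, Hspa1b (−1.37) and Hspa4 (−1.36), both Hsp70-family chaperones, with a median of −0.51. Endoplasmic reticulum chaperones had 2 of 43 lower (4.65%), Hsp90b1 (−1.29) and Hspa5 (−1.20), with a median of −0.26. Glycolysis had 2 of 22 lower (9.09%), Pgam2 (−1.71), the muscle phosphoglycerate mutase, and Pfkl (−1.11), with a median of −0.44. Over all genes, 2.03% were lower. Without polysomal library 3, no member of these 4 lists fell in limma, and without library 1, 6, 5, 4 and 4 fell. With all libraries, DESeq2 called 10, 10, 9 and 7 lower, and the counts at an unadjusted p under 0.05 were 16, 14, 14 and 9.

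Transcripts that encode no protein were examined because polysomes should hold few of them. Dnm3os (ENSMUSG00000078190; chromosome 1, 162217623 to 162225550, GRCm38), the host transcript of a miR-199a and a miR-214 gene, had 18.96 and 17.8 in total RNA and 1.23, 1.45 and 1.33 in polysomal RNA, a 13.8-fold ratio of means (−3.05 ± 0.26, adjusted p = 0.00193). Mir17hg, the host of the miR-17 to miR-92a cluster, stood at 1.81 and 3.52 in total RNA and 0.136, 0.171 and 0.172 in polysomal RNA (−1.62 ± 0.30, adjusted p = 0.027). Replicates of each fraction lay close together for Dnm3os, and the polysomal values of Mir17hg rest on at most 4 reads. The mature miRNAs of these hosts were not measured here. Their sequences are shown, from RefSeq on GRCm38.p6, so that the products of the depleted transcripts can be identified; capitals mark the seed, bases 2 to 8, which pairs with targets.
mmu-miR-199a-5p: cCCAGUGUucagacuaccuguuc
mmu-miR-199a-3p: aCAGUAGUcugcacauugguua
mmu-miR-214-3p: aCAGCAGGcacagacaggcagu
mmu-miR-17-5p: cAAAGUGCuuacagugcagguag
mmu-miR-20a-5p: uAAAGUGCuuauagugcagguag
mmu-miR-19a-3p: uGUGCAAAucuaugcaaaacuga
mmu-miR-19b-3p: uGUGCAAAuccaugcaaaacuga
mmu-miR-92a-3p: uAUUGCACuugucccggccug
Within the Mir17hg cluster, miR-17-5p and miR-20a-5p share a seed, and miR-19a-3p and miR-19b-3p share another.

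Xist, the RNA that coats the inactive X chromosome in the nucleus, had 187 and 105 in total RNA and 17.2, 46.8 and 30.7 in polysomal RNA (−2.22 ± 0.41, adjusted p = 0.0264). Xist and Mir17hg were the 2 of 11 listed nuclear or imprinted long non-coding RNAs that passed in limma, both lower. The list's median was −0.37, with 3 members above 0 and 8 below. DESeq2 called 2 higher and 2 lower, and without polysomal library 1, 2 rose and 4 fell. Neat1, the scaffold of nuclear paraspeckles, had 222 and 171 in total RNA and 168, 46.6 and 42.7 in polysomal RNA (−1.47 ± 0.52, adjusted p = 0.146): polysomal libraries 2 and 3 were low, and library 1 was close to total RNA. Malat1, a nuclear-speckle RNA, had 340.4 and 326 in total RNA and 469.6, 917 and 77.9 in polysomal RNA. Its polysomal libraries 1 and 2 were above total RNA and library 3 far below it, so that its difference of −0.04 ± 0.81 (adjusted p = 0.98) averages opposite values; edgeR gave 0.55. The polysomal libraries high in Malat1 were those with 23.1% and 32.7% of ribosomal RNA reads; whether the purified polysomes of these libraries held nuclear RNA was not tested. Small nucleolar RNA host genes, whose introns carry snoRNAs and whose spliced transcripts are known to enter polysomes and decay there, gave no call among 10 listed in limma or edgeR, 1 higher in DESeq2 and 5 at an unadjusted p under 0.05. Snhg1 stood at 25.8 and 52.4 in total RNA and 132, 74.8 and 39.1 in polysomal RNA and Snhg5 at 33.3 and 55.5 in total RNA and 125, 92.2 and 56.2 in polysomal RNA. The list's median was 0.80, −0.42 and −0.68 in polysomal libraries 1 to 3. It was −0.20 with all libraries, −0.36 without total library 1 and 0.01 without total library 2.

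The translation machinery itself, which Ddx27 serves through ribosomal RNA, gave few calls. Apart from Rpl3, none of 47 listed large-subunit proteins and none of 31 small-subunit proteins passed in limma. At an unadjusted p under 0.05 the 2 lists held 4 genes, with Rpl3 among them, and 3 genes. In both lists edgeR called none but Rpl3, and DESeq2 called 1 and 1 lower. The medians were −0.31 and −0.26. They hide a split between libraries: in polysomal libraries 1 to 3 the large-subunit median was 0.48, −0.71 and −0.67 and the small-subunit median 0.48, −0.74 and −0.47, and the 2 total libraries lay at −0.36 and 0.36 for the large subunit. Rpl4, for example, had 1431 and 1813 in total RNA and 2626, 1526 and 1769 in polysomal RNA, and Rpl8 2844 and 4387 in total RNA and 3936, 1899.8 and 2271 in polysomal RNA. Ribosomal protein genes are short, with median lengths of 1430 and 1386 bases in the 2 lists, and the libraries with the highest list medians are the 2 that read short genes high. With each library's length trend removed, the fitted medians were −0.31 and −0.26. The part of length in the split between libraries was not tested. Without total library 1 the medians were −0.70 and −0.64, and without total library 2 they were 0.06 and 0.19. Without polysomal library 1, 8 large-subunit and 4 small-subunit genes fell.

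Factors that assemble the large subunit, the side of Ddx27, gave no call among 57 listed in limma and edgeR, with 13 at an unadjusted p under 0.05 and 6 lower in DESeq2; 48 had a difference below 0 and the median was −0.40, or −0.45 without total library 1 and −0.21 without total library 2. Without polysomal library 1, 2 fell. Of 65 small-subunit factors, 3 fell: Rrp12 (71.2 and 70.5 against 18.6, 31.5 and 21.3; −1.57 ± 0.27, adjusted p = 0.0242), a factor of pre-ribosome export, and Utp20 (−1.46) and Tbl3 (−1.32), both parts of the processome that cuts early ribosomal RNA. These 3 were 4.62% of the list, against 2.03% of all genes lower, and the list's median was −0.38. None of this list fell without polysomal library 3, 9 fell without library 1, and 13 were lower in DESeq2 and 13 with the length trends removed. Of 57 translation factors, 1 fell, Eif4g1, the scaffold of the cap-binding complex, at 598 and 490.3 in total RNA and 184, 280.2 and 179 in polysomal RNA (−1.36 ± 0.28, adjusted p = 0.0383). The median of translation factors was −0.13, or −0.23 without total library 1 and 0.03 without total library 2. Without polysomal library 1, 3 fell and 2 rose. With all libraries, DESeq2 called 6 lower.

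Mitochondrial and housekeeping lists had at most 1 call each. Of 74 nuclear-encoded respiratory chain genes, 1 fell, Ndufs1, a core subunit of complex I, at 175 and 169 in total RNA and 63.4, 90.1 and 64.0 in polysomal RNA (−1.26 ± 0.25, adjusted p = 0.0329). Their median was −0.48, at 0.17, −0.80 and −0.61 in polysomal libraries 1 to 3. It was −0.79 without total library 1 and −0.03 without total library 2. The list had 13 genes at an unadjusted p under 0.05, 8 lower in DESeq2, 5 with the length trends removed and 12 without polysomal library 1. Cox4i1, a subunit of complex IV, had 987 and 2365 in total RNA and 1196, 594 and 801 in polysomal RNA and did not pass (−0.88 ± 0.43, adjusted p = 0.263). The 74 mitochondrial ribosomal proteins gave none in limma, edgeR or DESeq2 and 2 at an unadjusted p under 0.05, with a median of −0.21, or −0.47 without total library 1 and 0.10 without total library 2; Mrpl13, one of the 2 with the highest mean level, had 1608 and 3427 in total RNA and 2190.2, 1349 and 1419 in polysomal RNA. Of the 7 mitochondrially encoded mRNAs, which cytosolic ribosomes do not translate, none passed in limma or edgeR, 1 was higher in DESeq2 and 2 had an unadjusted p under 0.05; mt-Cytb had 3921 and 5595 in total RNA and 9485, 6491 and 8499 in polysomal RNA and mt-Co1 2990.4 and 4107 in total RNA and 3727, 5317 and 9133 in polysomal RNA. The polysomal values of mt-Cytb lay above the total ones, and those of mt-Co1 overlapped them. No gene passed in limma or edgeR among 44 proteasome subunits (median −0.46), 50 splicing proteins (−0.10), 55 G1/S genes (−0.04), 52 G2/M genes (0.12), 29 ATF4 targets (−0.17), 21 RNA polymerase I factors (−0.14) and 19 genes of iron and polyamine control (−0.28). At an unadjusted p under 0.05 these lists held 14, 9, 11, 10, 5, 3 and 3 genes, and DESeq2 called 0, 0, 1, 5, 1, 1 and 0 higher and 8, 2, 5, 1, 2, 1 and 0 lower. Without polysomal library 1, limma called 0, 0, 1, 4, 1, 2 and 0 higher and 7, 0, 4, 0, 2, 0 and 0 lower. With 1 total library left out, the median turned its sign for the RNA polymerase I factors (0.10 without library 2), the G1/S genes (0.08 without library 2), the G2/M genes (−0.10 without library 1), the splicing proteins (0.01 without library 1) and the mitochondrially encoded mRNAs (−0.42 without library 1, against 0.21 with all). Atf4 itself, whose mRNA is known for upstream reading frames, had 583 and 655 in total RNA and 1299, 836 and 648 in polysomal RNA (0.53 ± 0.33, adjusted p = 0.381).

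**Figure D5:**
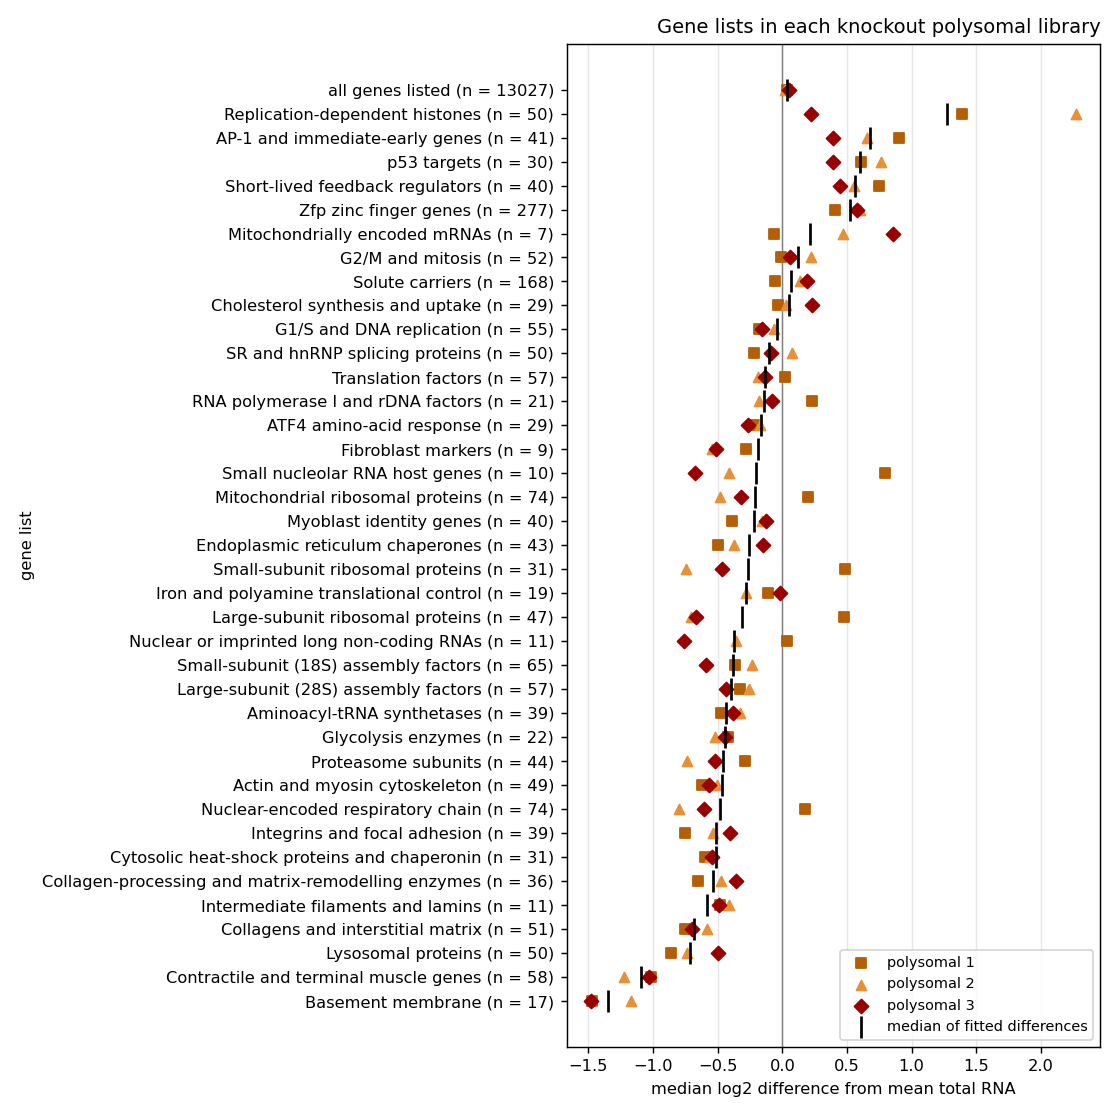
Median log2 difference from mean total RNA (horizontal axis) of each gene list (vertical axis, with its number of listed genes) in polysomal libraries 1 to 3 (square, triangle, diamond) and by the fit (black bar). Contractile, basement membrane and lysosomal lists lie below 0 in all 3 libraries and the immediate-early, feedback, p53 and Zfp lists above 0, whereas ribosomal protein lists are at 0.48 in polysomal library 1 and below −0.4 in libraries 2 and 3.

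The same contrast in wild-type cells, from 1 fit over all 11 libraries and the 12590 genes listed for both genotypes, was set beside these values. Of the 378 genes called in the knockout and listed for both, 357 had the same sign in wild type, against 7528 of all 12590. By the fit over all 11 libraries, 1312 genes were higher (10.4%) and 1817 lower (14.4%) in the wild type. The same fit gave 416 higher and 537 lower in the knockout, which has 2 total libraries against 3 in the wild type. The test of the difference between genotypes passed for 33 genes (0.262%), 28 with a higher (0.222%) and 5 with a lower (0.0397%) value in the knockout, 6 of them called in the knockout. Among the 28 of the 30 largest changes that are listed for both, 27 had the same sign, and the difference passed for none in limma, with 11 at an unadjusted p under 0.05. The log2 differences of Fos were 4.64 in the knockout and 4.34 in the wild type, and those of Dusp1 2.52 and 2.11. Acta1 gave −3.82 and −3.95, and Nes −3.12 and −3.25. In each of the 4 the sign was shared. Atf3 gave 2.90 and 1.33, Cck −3.46 and −0.57, and Htra3 1.94 and −1.02, with adjusted p-values of the difference of 0.12, 0.057 and 0.082. Trem2 and Pvalb are not listed for the wild type.

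List medians in both genotypes were set side by side. Contractile genes had a median of −1.10 in the knockout and −2.39 in the wild type, and basement membrane genes −1.35 and −1.96. Adding 1 before the logarithm makes falls of low genes smaller, so the medians do not separate polysomal share from level. Myh3, for example, stood at 3.40 and 0.971 in knockout and 24.3, 24.9 and 67.7 in wild-type total RNA. Its ratio of means in the knockout was 30.5-fold, at a log2 difference of −1.46. The difference between genotypes passed for 3 of the 56 contractile genes listed for both, with 30 at an unadjusted p under 0.05, and in limma for none of the 17 basement membrane genes, with 4. Large-subunit ribosomal proteins had −0.31 and 0.90, small-subunit ones −0.26 and 0.98, respiratory chain genes −0.48 and 0.65, and large-subunit assembly factors −0.40 and 0.36, so that these 4 medians were on opposite sides of 0. The difference between genotypes passed for none of the 47, 30, 74 and 57 members listed for both in limma, with 16, 7, 24 and 28 at an unadjusted p under 0.05. The knockout medians of all 4 lists moved with the total library left out, as given above. Immediate-early genes had 0.68 and 1.03, and Zfp genes 0.53 and 0.19, on the same side of 0 in both; the difference passed for 1 immediate-early and, in limma, for no Zfp gene, with 14 and 39 at an unadjusted p under 0.05.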

How the data were processed

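Gene-level values of 5 knockout libraries (2 total, 3 polysomal) and 6 wild-type libraries were used. The build mm10 and the tools HTSeq, STAR and edgeR are named per the submitters' processing notes, with versions, roles, strandedness and count settings not given in the sources used here. The signal the authors deposited is a normalised read count: 100% of values were a whole number of reads, within 0.001, times 1 factor per library. The columns sum to 847338 to 1170818 in the knockout table, so they are not plain CPM, although the planned design assumed CPM; its test was kept. The authors' table has a gene length in bases; the authors' own fold changes and FDR values were not used. All genes listed were tested, with no filter, by limma 3.58.1 (R 4.3.3) with a mean-variance trend on log2 of the value plus 1, Benjamini-Hochberg adjustment over all genes and a threshold of 0.05, two-sided, on knockout columns only. Fold changes of low genes are therefore understated. The difference between genotypes was a contrast of 4 group means over 11 libraries and 12590 genes; the tables were scaled separately, and no level was tested across them. Wild-type differences come from that fit.

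The rule for named genes took the 15 largest rises and falls that passed, did not overlap and reached a mean of 10 in 1 group, up to 6 called members of each of 43 lists ordered by size (the 2 highest where fewer than 2 passed), check genes, defining markers and the 4 gene models of ribosomal RNA reads. Jun, Hes1, Txnip, Myog, Cthrc1, Lama5, Lamb2 and Agrn were named after their values were seen, as were the families in the closing section. Some genes that the rule takes are not reported here. The genes, the lists and the tests were chosen with earlier results of these data known. Of 13027 gene IDs, 12918 matched the name table and 11986 had a coordinate by a unique symbol on GRCm38.p6, which is the mm10 build. The miRNA and promoter sequences are RefSeq's. Fits with edgeR 4.0.16 and DESeq2 1.42.0 on the reads recovered from the deposited signal (90 higher and 256 lower in edgeR), other pseudocounts, filters and scalings, removal of the length trend and leaving out each library were run as alternatives, one of them, without both libraries rich in ribosomal RNA reads, added after seeing the data. The limma fit was also run on simulated counts of 13027 genes, with the mean levels of total RNA and the real library sizes. It recovered 86.3% of 95 genes changed by 1 on the log2 scale and 100% of 105 changed by 2, and 3.11% of its calls were false. The simulation gave all genes the same spread and held no length trends and no libraries rich in ribosomal RNA reads. Its shares therefore do not carry over to the real libraries.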

Additional observations from a re-analysis of the deposited data

Results flagged for a closer look

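In 18 of the 33 genes that differed, those that were called in the knockout or belong to a list, the adjusted p of the test of the difference between genotypes was 0.025 to 0.045 (limma); these are given here because the polysomal-to-total difference of the knockout and of the wild type were not equal by that test. Values below are the knockout minus the wild-type log2 difference with its SE. The embryonic myosin Myh3 gave 3.47 ± 0.59, from −1.46 in the knockout and −4.93 in the wild type (it was not called in the knockout alone). In wild-type total RNA it stood at 24.3, 24.9 and 67.7 normalised read counts, in knockout total RNA at 3.40 and 0.971, and in every polysomal library below 0.5. Both knockout total libraries were below every wild-type total library, with tables scaled separately. Other muscle genes in this set were Chrnd, a subunit of the acetylcholine receptor, at 2.51 ± 0.41 (−0.45 in the knockout and −2.96 in the wild type), and Casq2, a calcium store protein, at 2.43 ± 0.41 (0.58 in the knockout and −1.85 in the wild type).

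Genes with a positive value in the knockout and a negative one in the wild type included Gpr153 (2.64 ± 0.39), Fhdc1 (2.37 ± 0.38), Lrrc17 (2.24 ± 0.30) and Klhl22 (2.15 ± 0.33), all 4 called higher in the knockout with wild-type differences of −1.13, −0.83, −0.99 and −0.41. Lrrc17, a secreted leucine-rich repeat protein, had 40.6 and 39.8 in total RNA and 100.2, 85.3 and 107 in polysomal RNA in the knockout and 132, 130.5 and 153 in total and 93.5, 58.1 and 60.7 in polysomal RNA of the wild type. Each fraction's libraries were separate in both genotypes, in opposite directions. The collagen receptor subunit Itga11 gave 2.62 ± 0.41, the keratin Krt19 2.29 ± 0.36, the neurofilament Nefl 2.29 ± 0.40, the transporter Slc37a2 2.24 ± 0.33, the NF-kappa-B inhibitor Tnfaip3 2.17 ± 0.36 and the matrix protease Mmp15 2.05 ± 0.34. None of these 6 was called in the knockout by limma, where their unadjusted p was under 0.05 only for Tnfaip3. Knockout levels of Itga11, Krt19, Nefl and Casq2 stayed below 4 normalised read counts in every library. The same held for Myh3 and for Gpr153 and Fhdc1, which were called. In total RNA, Nefl stood at 1.52 and 1.58 in the knockout and 274, 272 and 378 in the wild type. Krt19 stood at 0.725 and 0.931 in the knockout and 41.7, 41.7 and 62.0 in the wild type, with tables scaled separately. Adding 1 before the logarithm compresses differences at such low levels. For Nefl, Krt19 and Myh3 the test therefore cannot separate polysomal share from level. Of the 4 called higher, Gpr153 did not pass in edgeR (adjusted p = 0.11).

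In the other direction, Tagln, a smooth muscle actin-binding protein, gave −2.80 ± 0.42: it had 206 and 373 in total RNA and 178, 111 and 140.01 in polysomal RNA in the knockout and 184, 198 and 139.6 in total and 529, 819 and 522 in polysomal RNA of the wild type. Sprr2h gave −3.46 ± 0.56, Dscc1, a factor of sister chromatid cohesion, −2.29 ± 0.39, the BMP antagonist Grem1 −2.15 ± 0.37 and the growth factor-like Ctgf −1.57 ± 0.26. Of these 5, Grem1 and Sprr2h were called lower in the knockout. No difference of any gene passed without polysomal library 2, without polysomal library 3 or without total library 2, and 106 higher and 66 lower passed without total library 1. At an unadjusted p under 0.05, 2614 of the 12590 genes differed with all libraries. Groups of 2 and 3 libraries are too small to test for single outlying samples.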

How the results depend on the processing

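All 383 calls kept their direction in each of the 17 alternatives, for the genes that had a value there, but the number of calls did not hold. Genes higher and lower numbered 416 and 537 in a fit with all 4 groups, 567 and 802 in DESeq2, 622 and 766 with the length trends removed, and 76 and 187 with a mean level of at least 5. Leaving out 1 library gave 2 to 778 higher and 8 to 737 lower. Other pseudocounts, edgeR, median-of-ratios or quantile scaling, a fit without the mean-variance trend, a filter of 1 in 3 libraries and leaving out both libraries rich in ribosomal RNA reads gave 90 to 122 higher and 217 to 280 lower. The difference between genotypes passed for 28 higher and 5 lower genes, 91 and 40 with length trends removed, 56 and 10 at a pseudocount of 4, and 0 to 106 higher and 0 to 66 lower with 1 library left out. Fits with 1 library in an arm assume that it varies like the other groups. The cause was not tested.

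Among genes with values in the text that were not called, the sign turned for Ddx27 (−0.23 to 0.13 with 1 library left out, 0.037 without total library 2), Malat1 (0.52 in DESeq2, 0.55 in edgeR, 0.28 with quantile scaling, −0.79 to 0.98 with 1 library left out), Myf5 (0.0048 without both libraries rich in ribosomal RNA reads), and, with 1 library left out, Lgals1 (−0.092 to 0.47), Mrpl13 (−1.09 to 0.0040), Mmp15 (−0.089 to 0.28) and Ctgf (−0.060 to 0.22). No paired analysis was possible because the column numbers of the knockout libraries could not be tied to the replicate numbers of the labels. Only 2 total libraries and their opposite length trends limit these comparisons, and genes under 1 normalised read count rest on few reads.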

Other observations

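Some gene families outside the lists were picked after their values were seen, so no test of them as groups was made. Protocadherin beta genes, single-exon genes for adhesion proteins known mainly from neurons, had 13 listed members, all with a difference below 0, a median of −1.01 and 4 lower in limma. Pcdhb20 had 9.40 and 5.95 in total RNA and 0.681, 1.63 and 1.21 in polysomal RNA (−1.99 ± 0.32, adjusted p = 0.018), and Pcdhb17 had 11.8 and 6.72 in total RNA and 0.953, 2.40 and 2.58 in polysomal RNA (−1.79 ± 0.36, adjusted p = 0.037). Pcdhb14 and Pcdhb12 fell by 1.53 and 1.31 on the log2 scale. In 11 of the 13, every polysomal library lay below both total libraries, against 18.3% of all genes. In the wild type, 10 of them are listed, with a median of −1.38. Reads of such similar genes may be split between copies. None of the 4 was called without polysomal library 3 or without either total library.

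Other short or non-coding RNAs were read in the same way. Of 5 listed mitochondrial tRNAs, mt-Tp (3.10 and 4.45 in total RNA and 0.136, 0.0856 and 0 in polysomal RNA; −2.14 ± 0.28, adjusted p = 0.0091) and mt-Tq (1.81 and 5.50 in total RNA and 0.136, 0.342 and 0.043 in polysomal RNA; −1.87 ± 0.38, adjusted p = 0.034) fell, and 2 of the other 3 had a difference above 0. None of 10 listed snoRNAs passed in limma or edgeR, 4 were lower in DESeq2 and 6 had an unadjusted p under 0.05; 9 had a difference below 0, with a median of −0.97. Mir22hg, the host of miR-22, had 24.6 and 24.3 in total RNA and 13.3, 7.53 and 8.91 in polysomal RNA and missed the threshold (−1.25 ± 0.29, adjusted p = 0.055). Lgals1, which encodes galectin 1, stood at 7421 and 10653 in total RNA and 15605, 7408 and 9389 in polysomal RNA (0.21 ± 0.45, adjusted p = 0.82), and Top2a, a topoisomerase of dividing cells, at 347 and 297 in total RNA and 120.2, 216 and 119.8 in polysomal RNA (−1.13 ± 0.30, adjusted p = 0.0817).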
